A study of Mus musculus with 24 samples.

Results

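The genes described here are the chemokines and secreted cytokines of NIH 3T3, a fibroblast line from mouse embryos that has been immortalized. They were chosen by name and level: every gene whose mouse symbol is Ccl, Cxcl or Tnfsf followed by a number, or Cx3cl1, Il6, Il11, Il33, Il34, Lif, Csf1, Csf2, Csf3, Kitl, Tslp, Osm or Clcf1, averaging 5 or more counts across the libraries. Of the 58 symbols that matched, 52 had at least 1 count and 28 reached the limit, out of 14361 genes that did so in the whole series. The members just inside the limit were Cxcl10 with a mean of 5.79 counts, Tslp with 8.79 and Ccl11 with 8.88, and those just outside were Ccl17 with 4.71, Tnfsf15 with 3.25 and Cxcl16 with 3.13. The gene order used below follows the roles of the proteins: CC chemokines, CXC and CX3C chemokines, growth factors of myeloid and stem cells, the interleukin-6 family, alarmins, and ligands of the tumor necrosis factor (TNF) superfamily.

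Chemokines are small secreted proteins that draw leukocytes along a gradient through G protein-coupled receptors, and they are classed by the spacing of their first cysteines as CC, CXC or CX3C. Cytokines such as colony stimulating factors, the interleukin-6 family and the TNF superfamily signal survival, growth or inflammation through receptors of other classes. Fibroblasts are known as a source of both: CXCL12 retains hematopoietic cells in their niches, CSF1 keeps macrophages alive, and CCL2 recruits monocytes.

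Each of the 8 groups held 3 libraries from stable pools of NIH 3T3 cells made by retroviral transduction with the vector pBabeNeo and selected with G418. The pools carried empty vector (EV), the fusion proteins TAZ-CAMTA1 or YAP-TFE3 found in epithelioid hemangioendothelioma, hyperactive full-length TAZ4SA or YAP5SA in which serines phosphorylated by LATS kinases are changed to alanine, or full-length TFE3 or CAMTA1. Those cells had been confluent for 48 h, except for CAMTA1, which was collected at sub-confluence and was compared with a second empty vector group labelled sub-confluent (EVsub). The comparisons ask how each protein moves the transcriptome of its control, and how a fusion protein differs from the full-length protein that gives its N terminus. The constructs are driven by a retroviral vector, are pools rather than clones and are present in a single line, so the groups stand for overexpression in cultured fibroblasts and not for the tumor. Triplicate pools were transduced separately, but within a group the p-values measure only the spread between these cultures.

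Library totals ran from 16471181 to 30132586 counts. The constructs were human coding sequences, so counts of the mouse genes do not check them: in CPM (counts scaled to library size), mouse Tfe3 was 74.1, 74.4 and 68.1 in the TFE3 libraries against 84.6, 93.2 and 89.2 in EV, and mouse Camta1 9.23, 11.2 and 9.43 against 5.603, 3.95 and 4.73 in EVsub. The 11 fibroblast markers summed to between 20460 and 56140 CPM in every library. Of the 11, 6 were called lower and 1 higher in TAZ4SA than in EV, and 6 lower and 2 higher in YAP5SA, with a median log2FC of -1.21 and -1.11. In EVsub against EV, 5 of the 11 were called lower and 1 higher, with a median log2FC of -0.59. The group mean of Dcn (decorin) was 2433 CPM in EV, 416 in TAZ4SA, 54.1 in YAP5SA, 264.9 in EVsub and 107.1 in CAMTA1. The 20 leukocyte markers summed to 6.16 to 7.97 CPM in EV, 20.3 to 71.7 in TAZ4SA, 86.9 to 136.8 in YAP5SA and at most 12.3 in the other groups, with Ms4a1, Adgre1 and S100a9 at 0 in every library. Most of that sum was Cd68, with a group mean of 66.9 CPM in YAP5SA and 40.6 in TAZ4SA, and Csf1r, described below. Of the 4 leukocyte markers tested, Cd68, Csf1r and Itgam were called higher in both groups, the last from 0.0159 CPM in EV to 1.32 in TAZ4SA and 1.13 in YAP5SA. Cd14, the other one tested, was not called in those groups. It was called higher in TAZ-CAMTA1 and YAP-TFE3, at 8.76 and 6.64 CPM beside 2.91 in EV. The 10 endothelial and epithelial markers summed to 3.53 to 5.22 CPM in EV, 9.46 to 16.6 in TAZ4SA, 8.15 to 9.34 in YAP5SA and 9.21 to 14.4 in YAP-TFE3, and Epcam was at 0 in every library. Kdr, a receptor of endothelial cells, had a group mean of 0.0749 CPM in EV, 9.63 in TAZ4SA and 6.42 in YAP5SA. Of the 5 tested, 3 were called higher and 2 lower in TAZ4SA, and 2 higher and 2 lower in YAP5SA. Those lower in both were Cdh1 and Tek, the latter from 3.05 CPM in EV to 0.208 in TAZ4SA and 0.602 in YAP5SA. In YAP-TFE3 4 were called higher, and most of the sum was Vwf, at 7.88 CPM. In TAZ-CAMTA1 Cdh1 and Cdh5 were called higher, Cdh5 from 0.01475 CPM in EV to 1.67. Kdr and Vwf were called higher in TFE3, and Tek was called lower in EVsub than in EV. The part of these markers in the results was not tested. In bulk RNA, fewer cells that express a gene and less RNA per cell cannot be told apart. EV replicate 2 stood apart from the other EV libraries in several CC chemokines, and where it decided a call or moved a called value by over 1.5 times, both values are given.

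In all values below, CPM are scaled with TMM factors, errors are SD over 3 libraries unless an SE is named, log2 fold changes (log2FC) are for the first group minus the second, and adjusted p come from quasi-likelihood F tests in edgeR, adjusted by the Benjamini-Hochberg method over the 14361 genes. A gene was called at an adjusted p under 0.05. In TAZ4SA 23 of the 28 members were called against EV, 82.1% where 57.5% of all genes were: 13 rose (46.4% of members, 31.1% of all genes) and 10 fell (35.7% and 26.4%). In YAP5SA 19 were called, 67.9% and so near the 71.2% of all genes: 7 rose (25.0% and 36.3%) and 12 fell (42.9% and 34.9%). In TAZ-CAMTA1 8 were called, 28.6% beside 21.5% of all genes: 7 rose (25.0% and 12.5%) and Cxcl12 alone fell (3.57% and 8.98%). In YAP-TFE3 10 were called, 35.7% beside 15.3%: 6 rose (21.4% and 10.6%) and 4 fell (14.3% and 4.74%). In TFE3 3 members fell (10.7%, where 1.02% of all genes fell, 2.36% rose and 3.38% were called). In CAMTA1 none of the members was called against EVsub by edgeR, where 2.18% of all genes were, 1.29% higher and 0.891% lower. In that comparison 10 members (35.7%) had an unadjusted p under 0.05 by edgeR. The share of all genes under that limit was not counted, so the number cannot be read as an effect on the members. DESeq2 called Ccl7 and Il34, where it called 4.64% of the 13803 genes to which it gave an adjusted p. Between EVsub and EV 9 were called, 32.1% beside 22.1%: 4 were higher in EVsub (14.3% and 12.5%) and 5 lower (17.9% and 9.59%). The 6 comparisons with EV share the EV libraries.

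**Figure D1:**
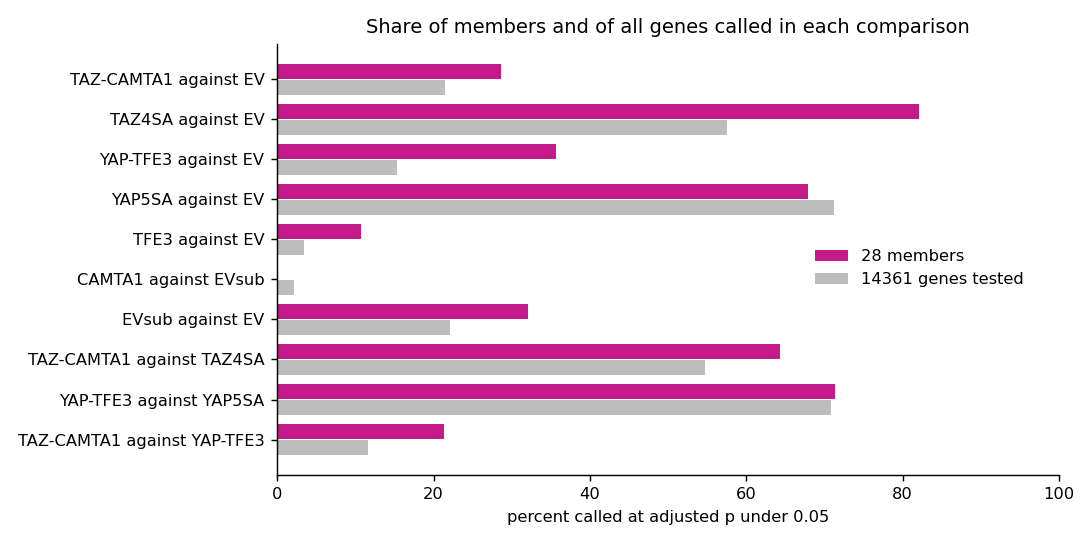
Percent of the 28 members (filled) and of all 14361 tested genes called at an adjusted p under 0.05 in each of the 10 comparisons. The share of members is above that of all genes in TAZ4SA (82.1% and 57.5%) and YAP-TFE3 (35.7% and 15.3%) against EV and slightly below it in YAP5SA (67.9% and 71.2%).

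The members moved far relative to the median gene. The median size of the log2FC against EV was 1.42 over the members and 0.54 over all genes in TAZ4SA, 1.57 and 0.81 in YAP5SA, 0.74 and 0.26 in TAZ-CAMTA1, and 0.80 and 0.22 in YAP-TFE3. The signed medians were smaller, at 0.47 in TAZ4SA, -0.25 in YAP5SA, 0.18 in TAZ-CAMTA1 and 0.16 in YAP-TFE3, and the members split between rises and falls. The median size was also larger over the members than over all genes in TFE3 (0.5 and 0.16) and in EVsub (0.53 and 0.26) against EV. The same held in CAMTA1 against EVsub (0.52 and 0.2), where no member was called by edgeR. The excess was thus not particular to the fusion and hyperactive proteins, and genes matched for level were not compared. Summed over all members, the level was 1639 ± 272 CPM in EV, of which Cxcl12 made up 57.1%. The sum was 494 ± 47 in YAP5SA and 678 ± 146 in TAZ4SA, where Cxcl12 made up 9.70% and 12.7%. It was 1475 ± 35 in TAZ-CAMTA1 and 1225 ± 176 in YAP-TFE3, where Cxcl12 made up 26.2% and 27.1%.

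**Figure D2:**
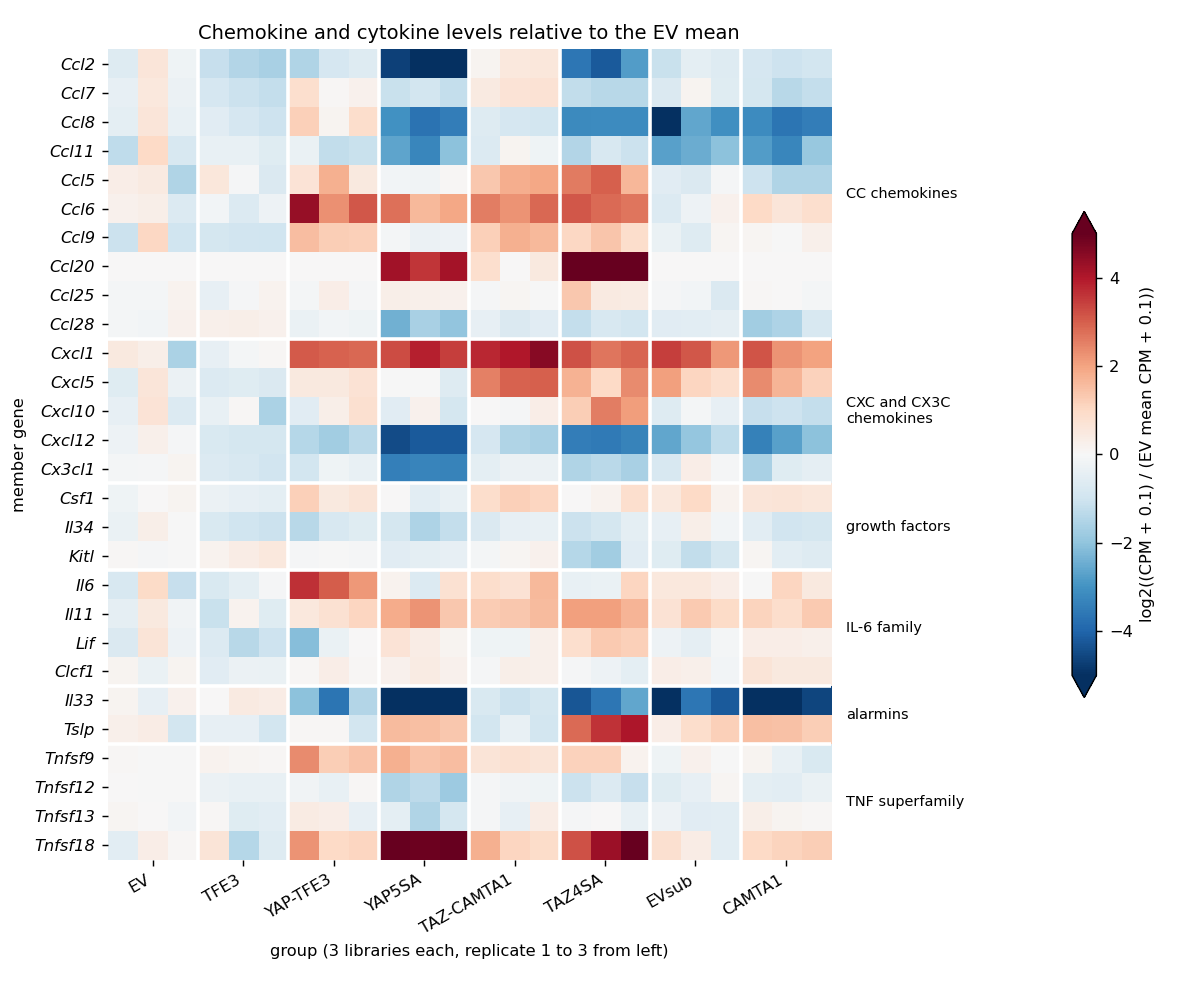
Heat map of the 28 members (rows, grouped by role) in the 24 libraries (columns, grouped by construct), as log2 of CPM over the EV mean, with 0.1 added to both. Cxcl12, Il33, Ccl2 and Ccl8 are low in all TAZ4SA and YAP5SA libraries, while Cxcl1, Tnfsf18, Ccl20 and Il11 are high there.

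Ccl2, Ccl7, Ccl11 and Ccl8 lie within one stretch of chromosome 11 (GRCm38, 82035571 to 82116799, plus strand). They encode monocyte chemoattractants and, in Ccl11, an eosinophil chemoattractant. Ccl2 read 68.05, 162 and 91.01 CPM in the EV libraries, 8.73, 5.696 and 15.4 in TAZ4SA and 4.16, 1.72 and 2.03 in YAP5SA. It read 118, 153 and 156 in TAZ-CAMTA1, 37.6, 59.5 and 68.8 in YAP-TFE3, 48.4, 38.5 and 35.1 in TFE3, 49.6, 76.4 and 68.3 in EVsub and 59.7, 52.02 and 55.8 in CAMTA1. The hyperactive full-length proteins took Ccl2 far below every EV library, and the TAZ-CAMTA1 libraries overlapped EV. The log2FC against EV was -5.33 (SE 0.39, adjusted p = 1.21e-10) in YAP5SA and -3.39 (SE 0.34, adjusted p = 4.02e-08) in TAZ4SA. In TAZ-CAMTA1 it was 0.41 (SE 0.30, adjusted p = 0.36), so no change was called, and the fusion protein was higher than TAZ4SA by 3.81 (SE 0.35, adjusted p = 2e-08). Ccl2 fell in YAP-TFE3, with a log2FC of -0.95 (SE 0.31, adjusted p = 0.0375), but without EV replicate 2 the value was -0.52 with an adjusted p of 0.276, and the call was also lost without EV replicate 3 (-1.05) and without YAP-TFE3 replicate 1 (-0.76) or 2 (-1.0). Ccl2 was higher in YAP-TFE3 than in YAP5SA by 4.38 (SE 0.39, adjusted p = 2.09e-09), and higher in TAZ-CAMTA1 than in YAP-TFE3 by 1.36 (SE 0.31, adjusted p = 0.00537).

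Ccl7, a further monocyte chemoattractant, read 35.3, 67.9 and 38.9 CPM in EV, 20.1, 17.99 and 17.9 in TAZ4SA, 21.97, 25.4 and 20.8 in YAP5SA and 26.1, 22.4 and 20.6 in TFE3. It read 65.4, 76.5 and 77.6 in TAZ-CAMTA1, 84.3, 48.9 and 55.2 in YAP-TFE3, 28.9, 51.8 and 31.3 in EVsub and 25.96, 18.2 and 20.7 in CAMTA1. All libraries of TAZ4SA, YAP5SA and TFE3 lay below all EV libraries, while both fusion proteins overlapped EV, where replicate 2 was the highest. The log2FC was -1.34 (SE 0.24, adjusted p = 6.62e-05) in TAZ4SA and -1.06 (SE 0.24, adjusted p = 0.000437) in YAP5SA. Against the full-length proteins the fusion proteins were higher by 1.97 and 1.46 on the log2 scale. Left out of the fit, EV replicate 2 also decides the call for the fusion proteins: the log2FC of Ccl7 was then 0.98 (adjusted p = 0.0036) in TAZ-CAMTA1 and 0.76 (adjusted p = 0.0261) in YAP-TFE3, where with it they were 0.63 and 0.41 and not called.

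Ccl8, which also attracts monocytes and other leukocytes, was a member on which the fusion proteins differed. It read 8.697, 18.2 and 9.29 CPM in EV, 1.24, 1.27 and 1.28 in TAZ4SA, 1.39, 0.834 and 1.01 in YAP5SA and 0.137, 1.89 and 1.35 in EVsub. The values were 7.604, 6.62 and 6.39 in TAZ-CAMTA1, 27.6, 13.3 and 22.2 in YAP-TFE3, 8.05, 6.75 and 5.89 in TFE3 and 1.26, 0.857 and 1.02 in CAMTA1. Libraries of both hyperactive proteins and of both sub-confluent groups stayed under 2 CPM, below every EV library, while YAP-TFE3 overlapped EV and held the highest library. Ccl8 fell by 3.25 (SE 0.43) on the log2 scale in TAZ4SA, by 3.48 (SE 0.44) in YAP5SA and by 3.37 (SE 0.42) in EVsub. Against EV neither fusion protein passed the test, at -0.81 (SE 0.36, adjusted p = 0.11) and 0.8 (SE 0.35, adjusted p = 0.133), but without EV replicate 2 Ccl8 was called higher in YAP-TFE3, at 1.22 (adjusted p = 0.0283). The direct difference of TAZ-CAMTA1 from YAP-TFE3 was -1.61 (SE 0.36, adjusted p = 0.00444). Ccl11 was called lower in YAP5SA and EVsub than in EV: 55 counts in the EV libraries stood against 3 in YAP5SA, a ratio of 15.2 (exact 95% counting interval 4.93 to 75.8), and against 6 in EVsub, a ratio of 10.1 (4.33 to 28.6). Of the EV counts of Ccl11, 38 came from replicate 2, without which the log2FC in EVsub was -2.1 (adjusted p = 0.0336) in place of -3.28.

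Ccl5, Ccl9 and Ccl6 form a second group on chromosome 11 (83525778 to 83593087, minus strand), and these genes rose in several groups. Ccl9, known in mice as macrophage inflammatory protein-1 gamma, read 6.92, 30.2 and 7.43 CPM in EV, 33.7, 50.6 and 46.1 in TAZ-CAMTA1, 30.7, 39.4 and 27.7 in TAZ4SA and 42.9, 34.99 and 34.2 in YAP-TFE3. It read 13.8, 11.97 and 12.3 in YAP5SA, 8.05, 7.64 and 7.32 in TFE3, 11.8, 9.37 and 15.8 in EVsub and 16.1, 14.8 and 17.6 in CAMTA1. Every library of both fusion proteins lay above every EV library, while TAZ4SA overlapped EV through replicate 2. Ccl9 rose by 1.55 (SE 0.35, adjusted p = 0.00252) in TAZ-CAMTA1, 1.34 (SE 0.35, adjusted p = 0.00983) in YAP-TFE3 and 1.13 (SE 0.35, adjusted p = 0.00819) in TAZ4SA. In YAP5SA the log2FC was -0.22 (SE 0.35, adjusted p = 0.584), and without EV replicate 2 it was 0.82 (adjusted p = 0.00154). Without that library the values were 2.6 in TAZ-CAMTA1, 2.38 in YAP-TFE3 and 2.18 in TAZ4SA, all called, and Ccl9 was called higher in EVsub than in EV (0.78, adjusted p = 0.0104), where the log2FC over all libraries was -0.26. Without EV replicate 1 or 3 the call was lost in TAZ4SA (0.79 and 0.81, adjusted p = 0.0551 and 0.057) and in YAP-TFE3 (0.99 and 1.01, adjusted p = 0.0659 and 0.0732). The YAP-TFE3 call was also lost without YAP-TFE3 replicate 1 (1.2, adjusted p = 0.0612). YAP-TFE3 was higher than YAP5SA by 1.56 (SE 0.35, adjusted p = 0.000469).

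Ccl6, a myeloid chemokine of the mouse, was near absent in EV, with 4 counts over its 3 libraries, and was called higher in all 4 of the fusion and hyperactive full-length proteins. Its level was 0.670 to 3.21 CPM in YAP-TFE3, a ratio over EV of 26.1 (exact 95% counting interval 9.93 to 97.5). The ratio was 18.2 (6.77 to 69.1) in TAZ4SA, 14.6 (5.43 to 55.4) in TAZ-CAMTA1 and 10.6 (3.78 to 40.95) in YAP5SA. Ccl5 (RANTES), a T cell and monocyte chemoattractant, was at most 0.287 CPM in EV and rose by 2.16 (SE 0.60, adjusted p = 0.0125) in TAZ-CAMTA1 and 2.98 (SE 0.58, adjusted p = 0.000157) in TAZ4SA. The TAZ-CAMTA1 value of Ccl5 fell to 1.58 (adjusted p = 0.0669) without EV replicate 3, which had no count of it. Of the remaining CC chemokines, the mucosal chemokine Ccl28 fell from 2.10 to 2.65 CPM in EV to 0.359 to 0.687 in YAP5SA (-2.14, SE 0.27, adjusted p = 4.14e-07) and 0.943 to 1.27 in TAZ4SA (-1.03, SE 0.25, adjusted p = 0.00112). Ccl25, a thymic and gut chemokine, was higher in TAZ4SA by 0.84 (SE 0.23, adjusted p = 0.00376), with 8.58 CPM in TAZ4SA replicate 1 and 4.44 to 4.57 in the others. Without that replicate the value was 0.45 and not called.

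Ccl20 attracts dendritic cells and lymphocytes that carry CCR6, and its pattern was nearly all or none. All libraries of EV, EVsub, CAMTA1, YAP-TFE3 and TFE3 had no count of Ccl20. It read 4.46, 8.17 and 19.3 CPM in TAZ4SA and 1.74, 1.08 and 1.71 in YAP5SA, and TAZ-CAMTA1 had 3 counts over its 3 libraries. Against a floor of 3 counts per EV library, Ccl20 was at least 79.2-fold higher in TAZ4SA and at least 11.3-fold higher in YAP5SA. TAZ4SA exceeded TAZ-CAMTA1 by a ratio of 269 (exact 95% counting interval 91.6 to 1308), from 637 counts against 3. YAP-TFE3 was at least 11.99-fold lower than YAP5SA. Intervals and floors cover counting error only. The RefSeq window from 250 bases before to 50 after the gene start (chr1:83116516-83116815, GRCm38.p6, plus strand) is shown because the gene was off in 5 groups and on in 2. Capitals mark matches of the TEAD core (GGAATG, here as its reverse complement) and of the NF-kappaB motif (GGG, any 2 bases, TTTCC, here reversed as well).
Ccl20: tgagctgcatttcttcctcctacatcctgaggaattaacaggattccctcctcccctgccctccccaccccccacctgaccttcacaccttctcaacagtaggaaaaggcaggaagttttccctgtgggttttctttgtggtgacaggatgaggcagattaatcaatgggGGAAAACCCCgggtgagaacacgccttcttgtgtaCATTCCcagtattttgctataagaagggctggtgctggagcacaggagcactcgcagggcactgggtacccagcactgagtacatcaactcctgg
Of all 32851 windows of this length, 14.7% hold the TEAD core on either strand and 1.63% the NF-kappaB motif. Among the 18 members with a window in RefSeq, 4 held the TEAD core (Ccl20, Il33, Tnfsf13 and Tnfsf18) and 5 the NF-kappaB motif (Ccl20, Ccl9, Csf1, Cxcl1 and Il6). These are matches of letters, not sites shown to be bound.

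Cxcl12 was the member with the highest level in EV per length of transcript, at 114 CPM per kb of exon, ahead of Ccl2 at 93.9, Ccl7 at 59.1 and Csf1 at 52.7. CXCL12 is the ligand of CXCR4 and of the scavenging receptor ACKR3, and retains hematopoietic progenitors and lymphocytes. Cxcl12 read 775, 1125 and 906 CPM in EV, 551, 513 and 511 in TFE3, 521, 333 and 307 in TAZ-CAMTA1 and 345, 280.1 and 372 in YAP-TFE3. It read 85.9, 79.7 and 92.8 in TAZ4SA, 41.8, 50.9 and 50.9 in YAP5SA, 153, 242 and 391 in EVsub and 90.5, 144 and 228 in CAMTA1. No library of any other group reached the lowest EV library, and both hyperactive proteins lay below both fusion proteins. The log2FC against EV was -4.29 (SE 0.32, adjusted p = 1.54e-10) in YAP5SA, -3.44 (SE 0.31, adjusted p = 7.77e-09) in TAZ4SA, -1.49 (SE 0.29, adjusted p = 0.000748) in YAP-TFE3 and -1.27 (SE 0.28, adjusted p = 0.00242) in TAZ-CAMTA1. TAZ-CAMTA1 was higher than TAZ4SA by 2.17 (SE 0.29, adjusted p = 2.98e-06) and YAP-TFE3 higher than YAP5SA by 2.8 (SE 0.30, adjusted p = 4.09e-08). In TFE3 the value was -0.83 (SE 0.28, adjusted p = 0.124), which did not pass the test although its libraries did not overlap EV. Between EVsub and EV it was -1.83 (SE 0.29, adjusted p = 0.000126). Cxcr4 had no count in any library, and Ackr3 was higher in EVsub than in EV by 1.43 on the log2 scale (SE 0.28, adjusted p = 0.00106) and lower in YAP5SA, at -1.08 (SE 0.31, adjusted p = 0.00352).

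**Figure D3:**
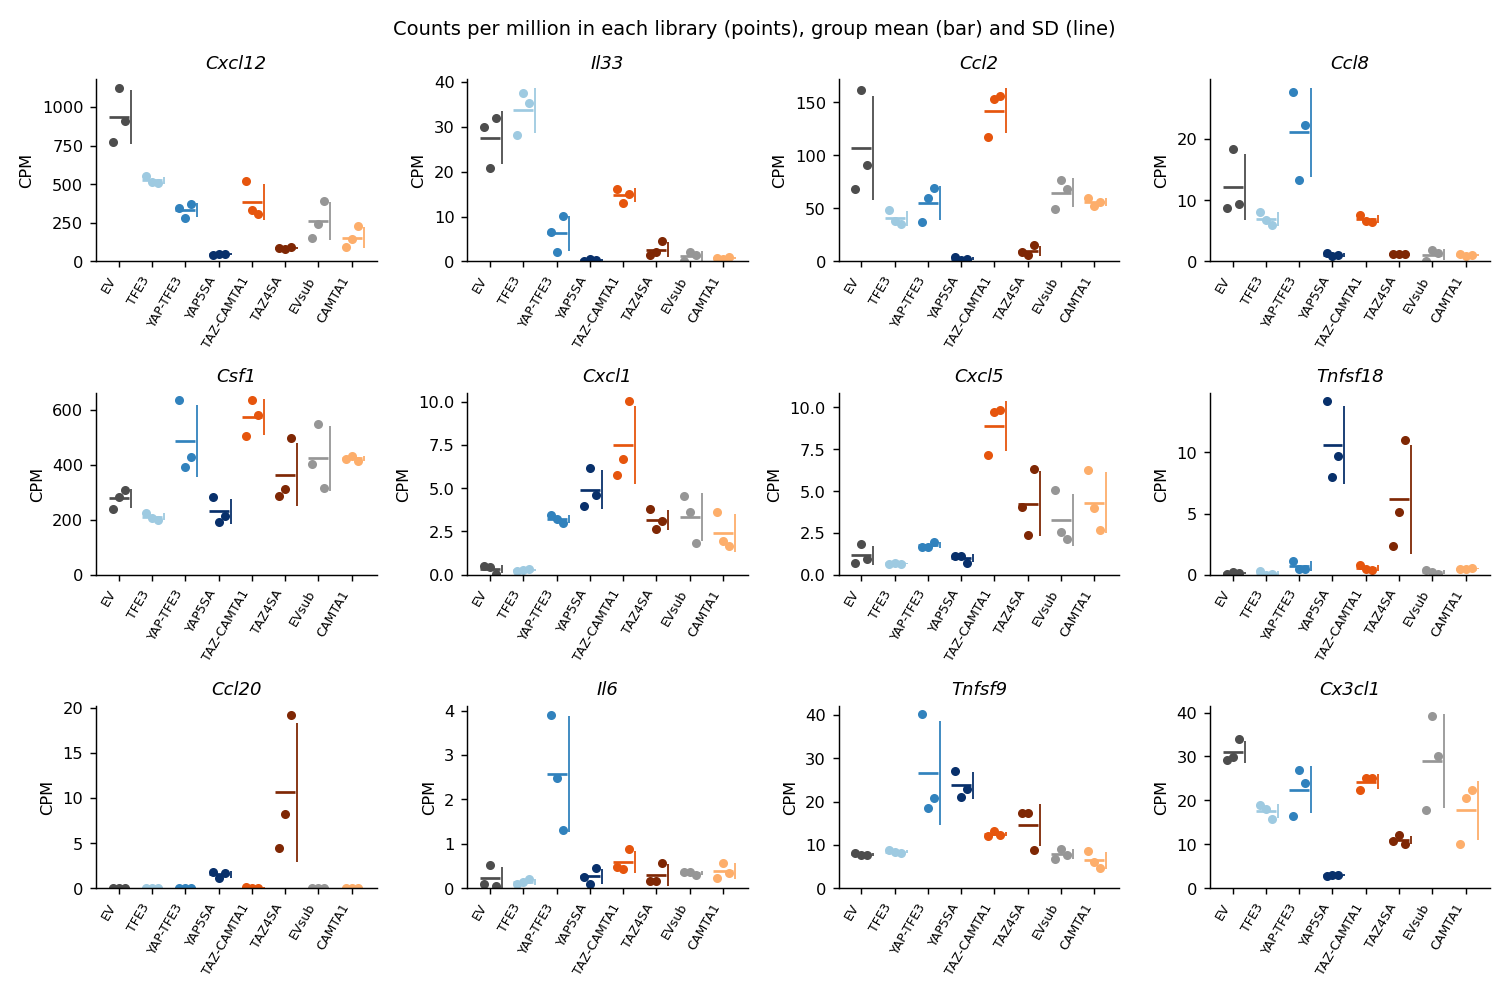
CPM in each library (points), group mean (bar) and SD over 3 libraries (line) for 12 members, one panel each with its own vertical axis. Cxcl12 is highest in EV and lowest in YAP5SA (41.8 to 50.9 CPM), Ccl20 is seen in TAZ4SA and YAP5SA, and Il6 is highest in YAP-TFE3 (1.32 to 3.91 CPM).

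Cx3cl1 encodes fractalkine, a membrane-bound chemokine that can be shed and that binds CX3CR1. It read 29.3, 29.8 and 33.9 CPM in EV, 22.2, 25.2 and 25.2 in TAZ-CAMTA1, 16.4, 26.9 and 23.99 in YAP-TFE3 and 19.04, 17.9 and 15.8 in TFE3. The values were 10.8, 11.99 and 10.1 in TAZ4SA, 2.77, 3.09 and 2.98 in YAP5SA, 17.9, 39.1 and 30.05 in EVsub and 10.1, 20.6 and 22.4 in CAMTA1. YAP5SA libraries were the lowest, TAZ4SA came next among the confluent groups, and all other confluent groups also lay below EV without passing the test. The log2FC against EV was -3.39 (SE 0.28, adjusted p = 8.1e-10) in YAP5SA and -1.5 (SE 0.25, adjusted p = 3.06e-05) in TAZ4SA. The fusion proteins were higher than the full-length proteins by 2.93 (SE 0.28, adjusted p = 7.74e-09) for the YAP pair and 1.14 (SE 0.25, adjusted p = 0.00063) for the TAZ pair.

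Cxcl1 and Cxcl5, on chromosome 5 (90759360 to 90893115, plus strand), encode neutrophil chemoattractants that signal through CXCR2. Cxcl1 read 0.507, 0.4297 and 0.0442 CPM in EV, 5.74, 6.71 and 10.02 in TAZ-CAMTA1, 3.77, 2.62 and 3.12 in TAZ4SA, 3.46, 3.22 and 3.02 in YAP-TFE3 and 3.95, 6.18 and 4.62 in YAP5SA. It read 0.224, 0.295 and 0.349 in TFE3, 4.56, 3.597 and 1.82 in EVsub and 3.64, 1.95 and 1.64 in CAMTA1. Only the EV and TFE3 libraries stayed under 1 CPM. Cxcl1 rose by 4.5 (SE 0.45, adjusted p = 2.05e-07) in TAZ-CAMTA1, 3.89 (SE 0.46, adjusted p = 1.27e-07) in YAP5SA and 3.28 (SE 0.46, adjusted p = 2.66e-05) in YAP-TFE3. In TAZ4SA the rise was 3.27, and sub-confluence alone gave 3.32 (SE 0.46, adjusted p = 4.05e-05). Between the fusion and full-length proteins, TAZ-CAMTA1 was higher than TAZ4SA by 1.23 (SE 0.34, adjusted p = 0.00478), while YAP-TFE3 against YAP5SA gave -0.61 (SE 0.35, adjusted p = 0.119). The Cxcl1 window (chr5:90890995-90891294, GRCm38.p6, plus strand) is shown because the gene rose in all 4 groups. Capitals mark its matches of the NF-kappaB motif, the first of them reversed.
Cxcl1: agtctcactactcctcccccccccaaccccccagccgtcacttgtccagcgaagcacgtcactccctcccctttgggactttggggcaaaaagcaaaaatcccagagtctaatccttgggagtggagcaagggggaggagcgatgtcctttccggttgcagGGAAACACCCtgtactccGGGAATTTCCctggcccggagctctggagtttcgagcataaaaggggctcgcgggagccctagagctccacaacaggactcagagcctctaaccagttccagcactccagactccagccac
Cxcl5 read 0.718, 1.81 and 0.929 CPM in EV, 7.16, 9.69 and 9.82 in TAZ-CAMTA1, 4.07, 2.398 and 6.29 in TAZ4SA, 1.66, 1.67 and 1.95 in YAP-TFE3 and 1.13, 1.13 and 0.697 in YAP5SA. It read 0.6705, 0.717 and 0.662 in TFE3, 5.06, 2.56 and 2.16 in EVsub and 6.27, 3.998 and 2.66 in CAMTA1. Unlike its neighbor, Cxcl5 overlapped EV in both YAP5SA and YAP-TFE3. It rose by 2.95 (SE 0.38, adjusted p = 6.82e-06) in TAZ-CAMTA1, 1.92 (SE 0.39, adjusted p = 0.000252) in TAZ4SA and 1.5 (SE 0.39, adjusted p = 0.00837) in EVsub. The EVsub call was lost without EV replicate 1 (1.24, adjusted p = 0.0568) or EVsub replicate 1 (1.05, adjusted p = 0.0798). The direct difference of TAZ-CAMTA1 from YAP-TFE3 was 2.33 (SE 0.36, adjusted p = 0.000138). Cxcl5 was higher in TAZ-CAMTA1 than in TAZ4SA by 1.04 (SE 0.34, adjusted p = 0.0138), a call lost without TAZ4SA replicate 2 (0.77, adjusted p = 0.0754). Cxcl10, an interferon-induced T cell chemoattractant, was 0.595 to 1.65 CPM in TAZ4SA and at most 0.425 in every other group, and rose in TAZ4SA by 2.49 (SE 0.56, adjusted p = 0.000632).

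Csf1, Il34 and Kitl encode growth factors that act through receptor tyrosine kinases: CSF1 and IL-34 share the receptor CSF1R of macrophages, and KITL is the stem cell factor that binds KIT. Csf1 read 240.2, 285 and 309.5 CPM in EV, 506, 638 and 579.8 in TAZ-CAMTA1, 636, 392 and 430.1 in YAP-TFE3 and 285, 313 and 496 in TAZ4SA. It read 283, 193 and 216 in YAP5SA, 225, 207 and 200.5 in TFE3, 405, 550.5 and 315 in EVsub and 422, 434 and 416 in CAMTA1. All libraries of both fusion proteins lay above all EV libraries, and TAZ4SA and YAP5SA overlapped EV. Csf1 rose by 1.05 (SE 0.21, adjusted p = 0.00106) in TAZ-CAMTA1 and 0.81 (SE 0.21, adjusted p = 0.0106) in YAP-TFE3. The YAP-TFE3 call was lost without YAP-TFE3 replicate 1 (0.54, adjusted p = 0.155) or without EV replicate 1 (0.71, adjusted p = 0.0648). In TAZ4SA and YAP5SA the log2FC was 0.39 (SE 0.21, adjusted p = 0.118) and -0.27 (SE 0.21, adjusted p = 0.254), and without TAZ4SA replicate 1 the former was called, at 0.54 (adjusted p = 0.0495). Under total-count scaling the latter was called as well, at -0.64 (adjusted p = 0.0162). Directly compared, Csf1 was higher in YAP-TFE3 than in YAP5SA by 1.08 (SE 0.21, adjusted p = 0.000116) and in TAZ-CAMTA1 than in TAZ4SA by 0.66 (SE 0.21, adjusted p = 0.0123), the latter lost without TAZ4SA replicate 1 (0.51, adjusted p = 0.0771) or 2 (0.56, adjusted p = 0.0585) or TAZ-CAMTA1 replicate 2 (0.57, adjusted p = 0.0501).

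The receptor gene Csf1r, which is also one of the leukocyte markers, went the other way between those groups. It read 0.633, 0.478 and 0.796 CPM in EV, 8.83, 3.97 and 3.43 in TAZ4SA, 53.4, 30.4 and 36.1 in YAP5SA, 0.243, 0.512 and 0.439 in TAZ-CAMTA1 and 1.45, 1.21 and 1.61 in YAP-TFE3. Each TAZ4SA and YAP5SA library lay above each library of EV and of both fusion proteins. Csf1r was also called higher in EVsub than in EV, at 2.19, 2.49 and 0.803 CPM. The log2FC of Csf1r against EV was 5.96 (SE 0.41, adjusted p = 4.14e-11) in YAP5SA and 3.08 (SE 0.41, adjusted p = 1.66e-06) in TAZ4SA. The other leukocyte markers called higher in those groups were Cd68 and Itgam, given above, while Ptprc, the pan-leukocyte gene, had a group mean of 0.0917 CPM in TAZ4SA and 0.0662 in YAP5SA beside 0.0607 in EV.

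Il34 read 12.7, 19.9 and 15.97 CPM in EV, 9.71, 12.1 and 12.5 in TAZ-CAMTA1, 7.69, 8.77 and 11.5 in TAZ4SA and 6.17, 9.18 and 10.7 in YAP-TFE3. It read 8.78, 5.45 and 6.97 in YAP5SA, 9.52, 8.103 and 7.57 in TFE3, 12.03, 19.8 and 14.9 in EVsub and 11.2, 8.23 and 8.87 in CAMTA1. All confluent groups lay below EV in every library, with a log2FC of -1.2 (SE 0.23, adjusted p = 9.22e-05) in YAP5SA, -0.9 (SE 0.23, adjusted p = 0.00816) in YAP-TFE3 and -0.79 (SE 0.23, adjusted p = 0.00528) in TAZ4SA. The YAP-TFE3 call was lost without YAP-TFE3 replicate 1 (-0.74, adjusted p = 0.0656). In TAZ-CAMTA1 it was -0.5, which did not pass the test. An antisense gene overlaps Il34, and reads of both cannot be told apart if strand was not used in counting.

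Kitl read 101, 93.8 and 96.7 CPM in EV, 36.1, 29.2 and 65.8 in TAZ4SA, 65.97, 69.5 and 72.5 in YAP5SA and 63.2, 41.7 and 52.2 in EVsub. It read 91.2, 104 and 112 in TAZ-CAMTA1, 92.8, 96.2 and 92.3 in YAP-TFE3, 109, 126 and 140.0 in TFE3 and 104, 67.8 and 62.5 in CAMTA1. The hyperactive proteins and EVsub lay below EV without overlap, and both fusion proteins overlapped EV. Kitl fell by 1.15 (SE 0.22) in TAZ4SA and by 0.89 (SE 0.22) in EVsub on the log2 scale. Its value in YAP5SA, -0.49 (SE 0.21, adjusted p = 0.0462), was no longer called in any of the 6 fits that left out 1 of those libraries. TAZ-CAMTA1 was higher than TAZ4SA by 1.22 (SE 0.22, adjusted p = 7.76e-05). Kit had 1 count in all libraries together.

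Il6, Il11, Lif and Clcf1 encode cytokines of the interleukin-6 family, which share the signaling receptor gp130 encoded by Il6st. Il6, the founding acute phase cytokine, was 1.32 to 3.91 CPM in YAP-TFE3, 0.0443 to 0.525 in EV, 0.419 to 0.878 in TAZ-CAMTA1 and at most 0.572 in the other groups. Every YAP-TFE3 library stood above every library of all other groups. In TAZ-CAMTA1 the log2FC of Il6 against EV was 1.49 (adjusted p = 0.118), and without EV replicate 2 it was 3.11 and called (adjusted p = 0.0101). Il6 rose by 3.57 (SE 0.59, adjusted p = 0.000154) in YAP-TFE3, and YAP-TFE3 exceeded YAP5SA by 3.3 (SE 0.59, adjusted p = 3.49e-05). The log2FC of TAZ-CAMTA1 against YAP-TFE3 was -2.08 (SE 0.50, adjusted p = 0.00792), a call lost without YAP-TFE3 replicate 1 (-1.67, adjusted p = 0.054) or TAZ-CAMTA1 replicate 2 (-1.89, adjusted p = 0.0531). The Il6 window (chr5:30012864-30013163, GRCm38.p6, plus strand) is shown because its rise was seen with YAP-TFE3. Capitals mark an AP-1 match (TGANTCA) and then an NF-kappaB match. The AP-1 motif was found in 7.81% of all windows and in 7 of the 18 members (Ccl28, Ccl9, Cxcl10, Il11, Il6, Lif and Tnfsf13). The Il6 window held no E-box (CACGTG), a motif found in 7.15% of all windows and in none of the 18 members.
Il6: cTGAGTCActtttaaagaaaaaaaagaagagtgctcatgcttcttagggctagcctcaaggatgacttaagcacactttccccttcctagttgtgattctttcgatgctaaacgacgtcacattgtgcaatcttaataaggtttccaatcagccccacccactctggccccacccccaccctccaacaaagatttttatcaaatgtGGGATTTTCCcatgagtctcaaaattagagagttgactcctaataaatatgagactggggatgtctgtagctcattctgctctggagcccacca
Il11, a profibrotic cytokine, was 0.127 to 0.334 CPM in EV, 0.923 to 1.20 in TAZ4SA, 0.697 to 1.37 in YAP5SA and 0.647 to 0.838 in TAZ-CAMTA1. It rose by 2.36 (SE 0.40, adjusted p = 3.8e-05), 2.29 (SE 0.40, adjusted p = 2.97e-05) and 1.77 (SE 0.41, adjusted p = 0.00333) in that order of groups, and in YAP-TFE3 it gave 1.08 (SE 0.44, adjusted p = 0.104), or 1.53 and called without EV replicate 2 (adjusted p = 0.0468).

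Lif, the leukemia inhibitory factor, read 2.41, 6.45 and 3.41 CPM in EV, 7.34, 10.3 and 9.54 in TAZ4SA, 6.62, 5.35 and 4.498 in YAP5SA, 3.48, 3.49 and 4.87 in TAZ-CAMTA1 and 0.852, 3.22 and 4.12 in YAP-TFE3. It read 2.503, 1.52 and 1.95 in TFE3, 3.37, 2.96 and 3.85 in EVsub and 5.19, 5.19 and 4.85 in CAMTA1. Only TAZ4SA lay above every EV library. Lif rose in TAZ4SA by 1.15 (SE 0.35, adjusted p = 0.00722), a value of 0.88 (adjusted p = 0.0509) without EV replicate 1, and in YAP5SA the value was 0.44 (adjusted p = 0.273), called without EV replicate 2 at 0.92 (adjusted p = 0.0313). TAZ-CAMTA1 was lower than TAZ4SA, at -1.19 (SE 0.35, adjusted p = 0.00625). Clcf1, a B cell-stimulating cytokine, was 18.7 to 44.2 CPM over all 24 libraries and was called in no comparison with EV over all libraries. In TAZ4SA its log2FC was -0.25, called without EV replicate 2 (-0.4, adjusted p = 0.0351) and under total-count scaling (-0.44, adjusted p = 0.018).

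Among the receptors of these cytokines, Il6st rose against EV in TAZ4SA (log2FC 0.83), YAP-TFE3 (0.61), YAP5SA (0.58) and TAZ-CAMTA1 (0.49). Of the other receptor chains, Il6ra, Il11ra1 and Lifr moved down with the hyperactive proteins. Cntfr, too low to be tested, went the other way, with 4 counts in EV, 29 in TAZ4SA and 52 in YAP5SA. Il6ra fell by 3.11 (SE 0.13) on the log2 scale in YAP5SA and by 1.55 (SE 0.12) in TAZ4SA, from 40.8 ± 6.61 CPM in EV to 4.73 ± 0.199 and 13.96 ± 0.457. Il11ra1 fell by 2.22 (SE 0.22) and 1.32 (SE 0.21), and Lifr by 1.16 (SE 0.19) and 2.39 (SE 0.21), in YAP5SA and TAZ4SA. In TAZ-CAMTA1 Il6ra fell too, by 0.50 (SE 0.12, adjusted p = 0.00343) to 28.95 ± 1.54 CPM, and it was lower in EVsub than in EV by 0.42 (SE 0.12, adjusted p = 0.0124). In YAP-TFE3 Il6ra was 35.8 ± 2.19 CPM, Il11ra1 112 ± 15.1 and Lifr 8.15 ± 0.198, none of them called against EV.

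Il33 and Tslp encode alarmins, cytokines released by stressed stromal and epithelial cells that act on type 2 immune cells. Il33 read 30.02, 20.8 and 31.99 CPM in EV, 28.1, 37.6 and 35.4 in TFE3, 16.1, 13.04 and 14.97 in TAZ-CAMTA1 and 6.57, 2.08 and 10.1 in YAP-TFE3. It read 1.34, 2.17 and 4.48 in TAZ4SA, 0.103, 0.5397 and 0.253 in YAP5SA, 0.137, 2.17 and 1.395 in EVsub and 0.685, 0.619 and 1.05 in CAMTA1. The order from EV and TFE3 through TAZ-CAMTA1 to YAP-TFE3 and then the hyperactive and sub-confluent groups held library by library, except that YAP-TFE3 replicate 2 fell among the TAZ4SA and EVsub values. The log2FC of Il33 against EV was -6.48 (SE 0.67, adjusted p = 1.78e-08) in YAP5SA, -3.34 (SE 0.50, adjusted p = 7.39e-06) in TAZ4SA and -2.16 (SE 0.46, adjusted p = 0.00179) in YAP-TFE3. In TAZ-CAMTA1 the value was -0.91 (SE 0.43, adjusted p = 0.141) and did not pass the test. EVsub was lower than EV as well, at -4.43 (SE 0.53, adjusted p = 9.55e-06). The fusion proteins were higher than YAP5SA and TAZ4SA by 4.32 and 2.43 on the log2 scale.

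The IL-33 receptor is made of the chains encoded by Il1rl1 (ST2) and Il1rap. Il1rl1 was 644 ± 123 CPM in EV, 1067 ± 199 in YAP5SA, 1113 ± 204 in EVsub and 302 ± 136 in YAP-TFE3. It rose in YAP5SA by 0.73 (SE 0.27, adjusted p = 0.0186), where its ligand was lowest, and fell in YAP-TFE3, at -1.09 (SE 0.27, adjusted p = 0.00653). Il1rl1 was also called higher in EVsub than in EV. Il1rap, the shared accessory chain, fell in all 4, from 138 ± 28.1 CPM in EV to 24.7 ± 0.973 in YAP5SA, 31.1 ± 9.61 in TAZ4SA, 54.2 ± 7.202 in TAZ-CAMTA1 and 57.5 ± 5.97 in YAP-TFE3. Sub-confluent empty vector cells were called lower as well, with Il1rap at 45.07 ± 12.46 CPM in EVsub. Tslp, which lies on chromosome 18, went against Il33. It was at most 0.143 CPM in EV and 1.24 to 2.99 CPM in TAZ4SA, a ratio of 24.5 from 123 counts against 6 (exact 95% counting interval 10.9 to 68.1). In YAP5SA it was 0.380 to 0.462 CPM, a ratio of 4.83 (1.93 to 14.5). TAZ-CAMTA1 had 1 count of Tslp.

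**Figure D4:**
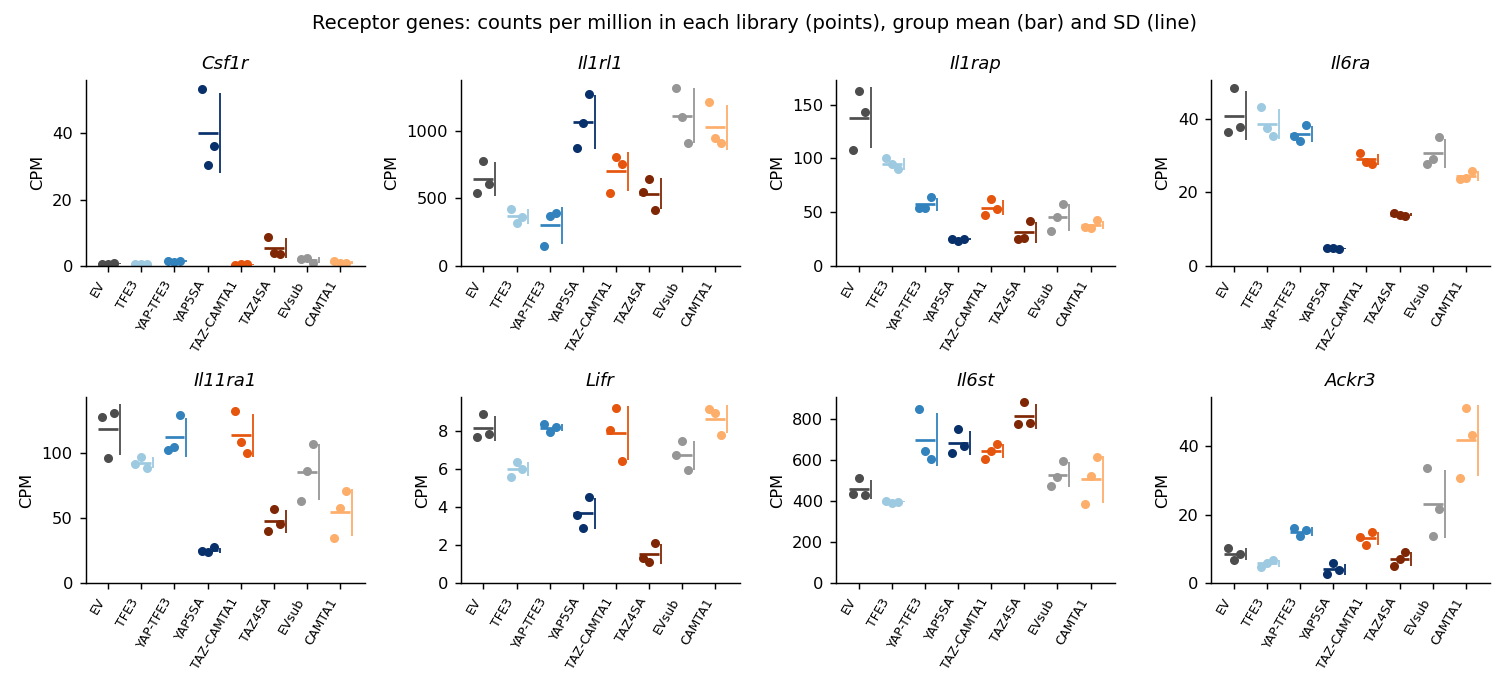
CPM in each library (points), group mean (bar) and SD over 3 libraries (line) for 8 receptors of the members, one panel each. Csf1r is high in YAP5SA (30.4 to 53.4 CPM), Il6ra and Il11ra1 are lowest there, and Il1rap is lower in all other groups than the highest EV library.

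The TNF superfamily ligands are type II membrane proteins that act as trimers, many of them co-stimulators of T cells. Tnfsf18 (GITR ligand) was 0.0844 to 0.239 CPM in EV, 2.33 to 11.04 in TAZ4SA and 7.95 to 14.2 in YAP5SA. It was 0.399 to 0.809 in TAZ-CAMTA1 and 0.435 to 1.15 in YAP-TFE3, above EV in each library without passing the test. Tnfsf18 rose by 5.97 (SE 0.63, adjusted p = 2.41e-08) in YAP5SA and 5.2 (SE 0.64, adjusted p = 5.46e-07) in TAZ4SA, and the log2FC of the fusion proteins against those was -4.0 and -3.46. The Tnfsf18 window (chr1:161494407-161494706, GRCm38.p6, plus strand) is shown because, like Ccl20, the gene was high with both hyperactive proteins. Capitals mark its TEAD core matches, both in reverse.
Tnfsf18: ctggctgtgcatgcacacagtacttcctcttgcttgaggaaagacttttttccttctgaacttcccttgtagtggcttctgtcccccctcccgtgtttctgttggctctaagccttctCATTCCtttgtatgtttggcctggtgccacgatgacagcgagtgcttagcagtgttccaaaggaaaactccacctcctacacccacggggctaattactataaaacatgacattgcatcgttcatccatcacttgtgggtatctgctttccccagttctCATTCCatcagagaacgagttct
Tnfsf9 (4-1BB ligand) read 8.15, 7.64 and 7.61 CPM in EV, 12.1, 13.1 and 12.2 in TAZ-CAMTA1, 17.3, 17.4 and 8.88 in TAZ4SA, 40.3, 18.5 and 20.9 in YAP-TFE3 and 27.2, 21.05 and 22.9 in YAP5SA. It read 8.72, 8.36 and 8.12 in TFE3, 6.79, 9.08 and 7.74 in EVsub and 8.58, 5.997 and 4.58 in CAMTA1. All 4 fusion and hyperactive groups lay above EV in every library. Tnfsf9 rose by 1.76 (SE 0.26, adjusted p = 5.41e-05) in YAP-TFE3, 1.6 (SE 0.26, adjusted p = 1.28e-05) in YAP5SA and 0.89 (SE 0.27, adjusted p = 0.00671) in TAZ4SA, and in TAZ-CAMTA1 it gave 0.68 (SE 0.26, adjusted p = 0.0703). The lower value of TAZ-CAMTA1 against YAP-TFE3, -1.09 (SE 0.26, adjusted p = 0.00726), was lost without YAP-TFE3 replicate 1 (-0.66, adjusted p = 0.0805).

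Tnfsf12 (TWEAK), which acts on tissue repair through the receptor Fn14, went down with the hyperactive proteins. It read 22.6, 22.1 and 21.95 CPM in EV, 10.6, 13.7 and 9.98 in TAZ4SA, 7.803, 8.98 and 6.21 in YAP5SA, 21.6, 19.8 and 19.2 in TAZ-CAMTA1 and 19.9, 16.98 and 23.2 in YAP-TFE3. It read 17.9, 16.9 and 17.3 in TFE3, 14.6, 16.5 and 23.7 in EVsub and 15.7, 15.2 and 17.5 in CAMTA1. The YAP5SA and TAZ4SA libraries lay below all libraries of all other groups. Tnfsf12 fell by 1.53 (SE 0.17) in YAP5SA and by 0.97 (SE 0.17) in TAZ4SA on the log2 scale, and the fusion proteins were higher than these by 1.38 (SE 0.17, adjusted p = 2.64e-07) and 0.83 (SE 0.17, adjusted p = 0.00027). The gene Tnfsf13 (APRIL) does not overlap Tnfsf12, but the readthrough gene Tnfsfm13 and the antisense gene Tnfsf13os overlap both. Tnfsf13 was called in YAP5SA (-1.03, SE 0.35, adjusted p = 0.0123), a call lost without YAP5SA replicate 2 (-0.73). Reads of the pair may have been split by the counting.

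Between each fusion protein and its full-length protein, 18 members differed in the TAZ pair, 64.3% beside 54.7% of all genes: 12 were higher in TAZ-CAMTA1 (42.9% and 26.6%) and 6 lower (21.4% and 28.1%). In the YAP pair 20 differed, 71.4% and so near the 70.9% of all genes: 15 were higher in YAP-TFE3 (53.6% and 36.4%) and 5 lower (17.9% and 34.5%). The median log2FC was 0.43 over the members and 0.00 over all genes in the TAZ pair, and 1.13 and 0.05 in the YAP pair. By group means, TAZ-CAMTA1 lay between EV and TAZ4SA for 16 members, above both for 10 and below both for 2 (Lif and Tslp), and YAP-TFE3 lay between EV and YAP5SA for 14, above both for 11 and below both for 2 (also Lif and Tslp), with Ccl20 at 0 in both YAP-TFE3 and EV. The members higher in both fusion proteins than in the full-length proteins were Ccl2, Ccl7, Ccl8, Csf1, Cx3cl1, Cxcl12, Il33 and Tnfsf12, and those lower in both were Ccl20, Lif, Tnfsf18 and Tslp. The difference between the pairs was itself called for 7 members, 25.0% beside 31.4% of all genes, in a contrast chosen after seeing the data. The call on Lif in the YAP pair, -0.99 (SE 0.36, adjusted p = 0.0182), was lost under total-count scaling, where its value was -0.62, and without YAP5SA replicate 1 (-0.83) or YAP-TFE3 replicate 1 (-0.57). The fusion proteins differed from each other in 6 members, 21.4% beside 11.6% of all genes: Ccl2, Cxcl1 and Cxcl5 were higher in TAZ-CAMTA1 (10.7% and 5.32%), and Ccl8, Il6 and Tnfsf9 in YAP-TFE3 (10.7% and 6.32%). Of these, Cxcl1 (1.21, SE 0.34, adjusted p = 0.0211) was not called without TAZ-CAMTA1 replicate 3 (0.95, adjusted p = 0.137) or without any 1 of the YAP-TFE3 libraries (1.17 to 1.26).

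**Figure D5:**
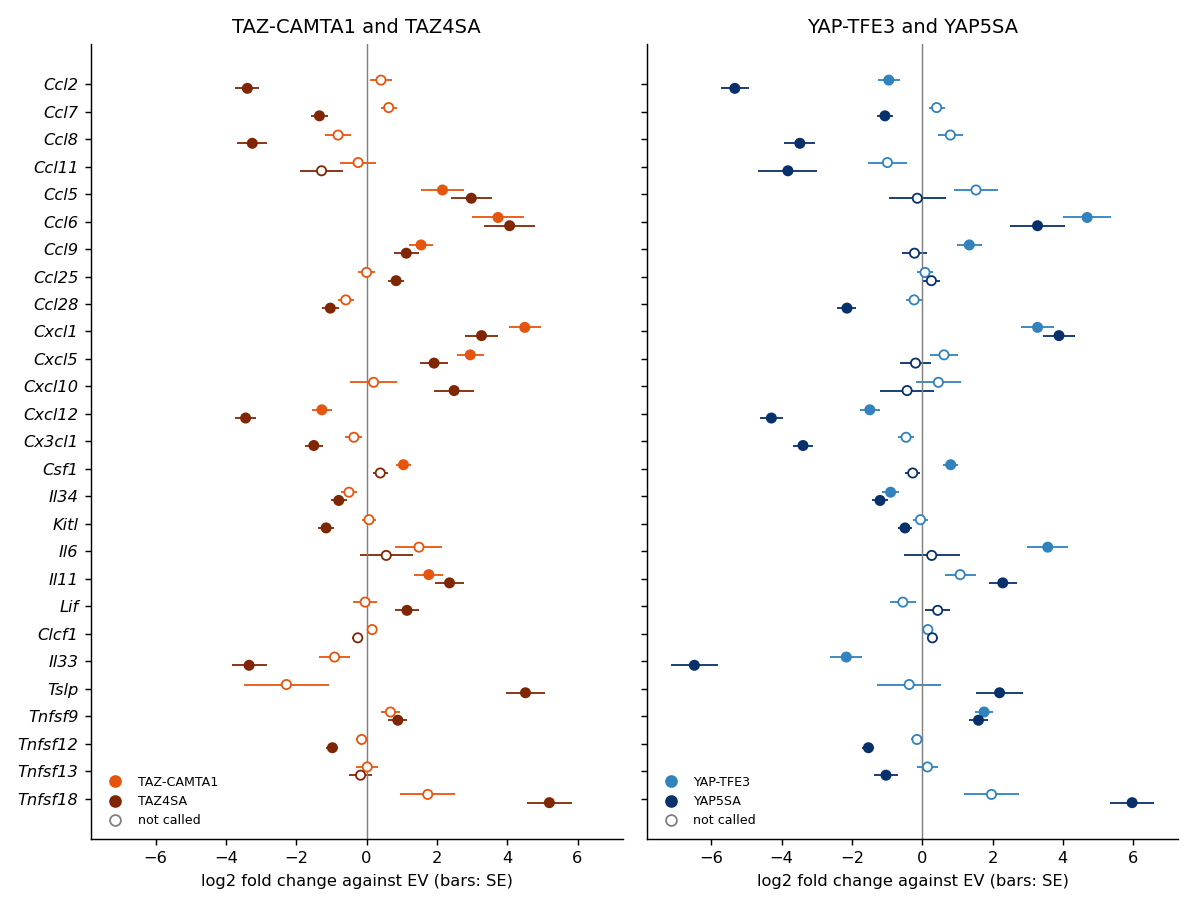
Log2FC against EV with its SE for 27 members (Ccl20, with no count in EV, is left out), the fusion protein and the full-length protein side by side for the TAZ pair and the YAP pair, with filled points for calls at an adjusted p under 0.05. Cxcl12, Il33, Ccl2 and Cx3cl1 reach further down with YAP5SA (-4.29, -6.48, -5.33 and -3.39) than with YAP-TFE3 (-1.49, -2.16, -0.95 and -0.46).

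The 3 members that fell in TFE3 were Ccl2 (-1.39, SE 0.31, adjusted p = 0.0126), Ccl7 (-1.04, SE 0.24, adjusted p = 0.0149) and Il34 (-0.95, SE 0.23, adjusted p = 0.0212). The 3 calls rested on single libraries: without EV replicate 2 the values were -0.97, -0.69 and -0.77 and none was called, and none was called without TFE3 replicate 2 or 3. The call on Il34 was also lost without EV replicate 3 (-0.96). TFE3 held the lowest group mean of 10 members, against 9 for YAP5SA, and for Ccl20 5 groups tied at 0. The members moved by sub-confluence in empty vector cells, beyond those given above, were Il11, higher in EVsub by 1.34 (SE 0.43, adjusted p = 0.0275), and Csf1, higher by 0.61 (SE 0.21, adjusted p = 0.0431). The call on Il11 was lost without EV replicate 1 (1.07), EV replicate 3 (1.23) or EVsub replicate 2 (1.12), with no filter on low counts (1.35) and in a fit of only the 2 groups (1.33). That on Csf1 was lost with the replicate number as a block (0.61, adjusted p = 0.0577) and without any 1 of the EV libraries (0.51 to 0.69) or EVsub replicate 1 (0.64) or 2 (0.37). Sub-confluence was not studied with TAZ4SA or YAP5SA, so density and construct can be compared only through EV.

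Of the 38 receptors of chemokines and of the listed cytokines, 12 reached a mean of at least 5 counts. Of these 12, 4 rose and 7 fell in YAP5SA, 2 rose and 6 fell in TAZ4SA, and 1 rose and 2 fell in each fusion protein. The shares called were 91.7% in YAP5SA, 66.7% in TAZ4SA and 25.0% in each fusion protein, beside 71.2%, 57.5%, 21.5% (TAZ-CAMTA1) and 15.3% (YAP-TFE3) of all genes. Their median log2FC was -1.02 in YAP5SA, -0.61 in TAZ4SA, -0.05 in TAZ-CAMTA1 and 0.01 in YAP-TFE3, where the medians over all genes were between 0.00 and 0.05. The receptors CCR2, CCR6, CXCR2 and CX3CR1, through which Ccl2, Ccl20, Cxcl1 and Cx3cl1 act, had at most 0.245 CPM in any library. Of 28 TNF receptor genes, 19 were tested, and 9 rose and 5 fell in YAP5SA, 7 and 5 in TAZ4SA, 5 and 3 in TAZ-CAMTA1 and 3 and 1 in YAP-TFE3. These were 73.7%, 63.2%, 42.1% and 21.1% of the 19, where 71.2%, 57.5%, 21.5% and 15.3% of all genes were called. The death receptor gene Fas rose by 2.87 (SE 0.23, adjusted p = 3.66e-10) in YAP5SA and 2.76 (SE 0.23, adjusted p = 2.41e-09) in TAZ4SA. Eda2r, an ectodysplasin receptor, rose in all 4, from 1.49 in YAP-TFE3 to 3.43 in TAZ4SA, and was also called higher in EVsub than in EV.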

How the data were processed

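RNA from 24 NIH 3T3 libraries was sequenced by the authors as 75 bp paired-end reads of stranded, polyadenylated libraries and processed with bcbio-nextgen, by alignment to mm10 with Hisat2 and by Salmon with tximport. The deposited files hold raw counts per Ensembl gene, without normalization. Which of these gave the deposited whole-number counts, and with what strand setting, is not given in the sources used here, so overlapping genes and paralogs may share reads. Groups came from the sample titles, and for YAP-TFE3 replicate 3 the description names another replicate and the title was used. Symbols and positions came from GENCODE M21 (GRCm38), which matched 37693 of 39017 identifiers, and promoter windows from RefSeq (GRCm38.p6), found for 18 of the 28 members. Totals of 16471181 to 30132586 counts per library mean that a member of 5 counts carries large counting error.

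All libraries were fitted together in edgeR 4.0.16 (R 4.3.3), with TMM factors, a coefficient per group and the quasi-likelihood F test, on the 14361 genes that averaged 5 or more counts. Adjustment was by the Benjamini-Hochberg method at 0.05. The fit was tested on simulated counts. Tables and figures used Python 3.11.15, pandas 2.3.3, numpy 2.4.6, scipy 1.17.1 and matplotlib 3.10.9. Fold bounds against groups without a count used a floor of 3 counts per library, and ratios of groups with 1 to 3 counts per library carry exact 95% intervals. Members and gene lists were chosen with earlier results of these data known. Members with a mean of at least 50 counts that were called with a log2 change of 1 or more in size against EV or EVsub are given in every library, and other members by ranges or counts. Genes of the lists were named under the same limits, apart from receptors of named members. The alternatives were DESeq2 1.42.0, its size factors in edgeR, no TMM factor, no filter on low counts, at least 10 counts in every library, only the 2 groups compared, the replicate number as a block and each library left out. The difference between the TAZ and YAP pairs was added after seeing the data.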

Additional observations from a re-analysis of the deposited data

Results flagged for a closer look

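The difference between fusion and full-length protein was compared between the TAZ pair and the YAP pair in the same edgeR fit, as the log2FC of TAZ-CAMTA1 against TAZ4SA minus that of YAP-TFE3 against YAP5SA, a contrast chosen after seeing the data. It was called for 7 of the 28 members, 25.0%, beside 31.4% of all genes. For Cx3cl1 the difference was -1.79 (SE 0.37, adjusted p = 0.00106), and the fusion protein was higher than the full-length protein in both pairs, by more in the YAP pair. For Ccl28 it was -1.47 (SE 0.38, adjusted p = 0.00519). For Cxcl1 it was 1.84 (SE 0.49, adjusted p = 0.00662), where TAZ-CAMTA1 was above TAZ4SA and YAP-TFE3 libraries were below YAP5SA without passing the test. For Cxcl10 it was -3.18 (SE 0.90, adjusted p = 0.00992). For Tslp it was -4.23 (SE 1.36, adjusted p = 0.021), for Ccl5 -2.5 (SE 0.82, adjusted p = 0.0236) and for Ccl8 -1.84 (SE 0.62, adjusted p = 0.0283). The last 3 lost the call when single libraries were left out, for example YAP-TFE3 replicate 2 for Tslp (-3.72, adjusted p = 0.128) and Ccl5 (-1.8, adjusted p = 0.136) and YAP-TFE3 replicate 1 for Ccl8 (-1.59, adjusted p = 0.0668).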

How the results depend on the processing

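Of 123 calls on single members, 30 were lost under at least 1 of the alternatives run and none changed direction. In all, 1468 of 1564 alternative values kept their side of the threshold, and 80 of the 96 that did not came from leaving out a library. Requiring at least 10 counts in every library left 14 of the 28 members and so fewer calls: 4 in TAZ-CAMTA1, 12 in TAZ4SA, 6 in YAP-TFE3 and 8 in YAP5SA against EV, 3 in EVsub against EV, 11 in the TAZ pair, 9 in the YAP pair, 3 between the fusion proteins and 1 for the difference between pairs. Of the 11461 genes left, 23.3% were called in TAZ-CAMTA1, 61.1% in TAZ4SA, 15.4% in YAP-TFE3 and 74.2% in YAP5SA. Their shares were 25.8% in EVsub, 58.2% in the TAZ pair, 74.2% in the YAP pair and 11.9% between the fusion proteins. Without a filter on low counts (24737 genes) 13 members were called in TAZ-CAMTA1, 7 in TFE3, 5 in CAMTA1 and 12 for the difference between pairs, and the cause was not tested. The shares of all genes were then 12.7% in TAZ-CAMTA1, 2.6% in TFE3 and 2.72% in CAMTA1. A fit of only the 2 groups compared called 13 in TAZ-CAMTA1 and 8 in TFE3, where it called 30.6% and 10.5% of all genes. DESeq2 called 2 in CAMTA1, where it called 4.64% of its 13803 genes. Without TMM factors 11 were called for the difference between pairs, and the median log2FC of all genes moved by -0.37 in YAP5SA and -0.17 in TAZ4SA against EV, 0.36 in the YAP pair and 0.17 in the TAZ pair.

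With each library left out in turn, the calls ran from 7 to 10 in TAZ-CAMTA1, 22 to 24 in TAZ4SA, 6 (without YAP-TFE3 replicate 1) to 12 (without EV replicate 2) in YAP-TFE3, 17 to 20 in YAP5SA, 0 (without EV replicate 2) to 4 (without EV replicate 1) in TFE3, 0 (without EVsub replicate 2) to 4 (without EVsub replicate 1) in CAMTA1 and 7 to 10 in EVsub. They ran from 16 to 19 in the TAZ pair, 17 to 20 in the YAP pair, 3 (without YAP-TFE3 replicate 1) to 6 between the fusion proteins and 5 to 9 for the difference between pairs. The shares of all genes ran from 14.0% to 22.3% in TAZ-CAMTA1, 52.1% to 61.8% in TAZ4SA and 7.89% to 15.8% in YAP-TFE3. They were 67.0% to 68.2% in YAP5SA, 1.34% to 1.99% in TFE3, 0.501% to 4.94% in CAMTA1 and 13.7% to 25.5% in EVsub. In the TAZ pair they were 46.6% to 60.3%, in the YAP pair 66.8% to 68.1% and between the fusion proteins 5.81% to 10.8%. For the difference between pairs, shares of all genes were not counted under any of the alternatives. Its member counts in this section therefore have no background to be read against.

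The labels share only replicate numbers, and correlations of same-numbered libraries ran from -0.212 to 0.41, with no comparison in which all 3 were over 0.1. With the replicate number as a block, 10 members were called in TAZ-CAMTA1, 23 in TAZ4SA, 10 in YAP-TFE3, 19 in YAP5SA, 4 in TFE3, 0 in CAMTA1, 8 in EVsub, 18 in the TAZ pair, 20 in the YAP pair, 6 between the fusion proteins and 9 for the difference between pairs. The shares of all genes were then 20.9% in TAZ-CAMTA1, 56.8% in TAZ4SA, 15.1% in YAP-TFE3, 70.7% in YAP5SA and 3.17% in TFE3. They were 2.1% in CAMTA1, 21.0% in EVsub, 53.9% in the TAZ pair, 70.4% in the YAP pair and 11.3% between the fusion proteins. Members near 5 counts, such as Cxcl10 and Tslp, are limited by counting error.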

Other observations

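Of 19 genes of NF-kappaB subunits and feedback targets, 17 were tested. In YAP5SA 11 rose and 3 fell against EV, in TAZ4SA 9 rose and 1 fell, in TAZ-CAMTA1 4 rose and in YAP-TFE3 3 rose, with a median log2FC of 0.99, 0.50, 0.14 and 0.09. The shares called were 82.4%, 58.8%, 23.5% and 17.6%, beside 71.2%, 57.5%, 21.5% and 15.3% of all genes. Ptgs2, the inducible cyclooxygenase, rose in all 4, by 5.43 (SE 0.48) in YAP5SA, 4.54 (SE 0.46) in TAZ4SA, 2.86 (SE 0.44) in TAZ-CAMTA1 and 2.08 (SE 0.43) in YAP-TFE3, and also by 1.89 (SE 0.40, adjusted p = 0.0145 by edgeR) in CAMTA1 against EVsub. Tnfaip3, a feedback inhibitor of the pathway, rose by 2.55 in TAZ4SA and 1.81 in YAP5SA, and Nfkb2 by 1.24 and 2.41. Ptgs2 and Nfkb2 were also called higher in EVsub than in EV, where 3 of the 17 rose and 0 fell (17.6% beside 22.1% of all genes). Of 22 tested genes of JAK-STAT signaling, 8 rose and 8 fell in YAP5SA and 4 rose and 7 fell in TAZ4SA, 72.7% and 50% beside 71.2% and 57.5% of all genes. In TAZ-CAMTA1 4 rose and 5 fell, 40.9% beside 21.5%, and in YAP-TFE3 6 rose and 0 fell, 27.3% beside 15.3%.

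Among 12 tested secreted cytokines outside the name rule, Mif, the macrophage migration inhibitory factor, rose by 2.26 (SE 0.19) in YAP5SA and 1.32 (SE 0.18) in TAZ4SA, from 100.6 CPM in EV to 480.5 and 250.6. Mif was also called higher in EVsub than in EV. Il18 fell by 1.42 in TAZ4SA, by 1.21 in TAZ-CAMTA1, by 1.20 in YAP5SA and by 0.98 in YAP-TFE3, and was lower in CAMTA1 than in EVsub by 0.98 (adjusted p = 0.0454 by edgeR).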
